A study of Mus musculus with 8 samples.

Results

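Fatty acid elongases and desaturases were followed in epidermis of newborn C57BL/6J mice lacking Zfp750, a zinc finger protein of differentiating keratinocytes. The 10 genes were chosen by name: the elongases Elovl1, Elovl5, Elovl6 and Elovl7, the reductase Hsd17b12 of the same cycle, and the desaturases Fads1, Fads2, Fads3, Scd1 and Scd2. All 10 are among the 15995 genes listed. RNA had been sequenced from 4 knockout (ZFP750-/-) and 4 wild-type samples, taken from newborn skin whose epidermis was peeled off after trypsin. The labels give neither the part of the gene removed, nor whether it is lost in all cells, nor whether each sample is 1 pup, and p-values therefore measure the spread between these samples. The titles of knockouts 1 and 2 both begin with KO1, and whether both came from 1 animal is not given. Without knockout 1, or without knockout 2, Elovl1, Elovl5, Elovl7, Hsd17b12 and Fads2 still passed the test described below and Elovl6 did not. Levels are FPKM, fragment counts scaled for transcript length and for the size of the library.

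Acyl chains are lengthened in the endoplasmic reticulum by a cycle of condensation, reduction, dehydration and a further reduction. An elongase (Elovl) carries out the condensation and sets which chains enter, Hsd17b12 the first reduction, a dehydratase (Hacd) the loss of water and Tecr the last step. Fads enzymes place double bonds in polyunsaturated chains, and Scd enzymes place one in saturated chains. In the epidermis very long saturated chains become part of the ceramides between the dead cells of the outer layer, which hold back water.

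In the knockouts the elongation genes Elovl1, Elovl5, Elovl6, Elovl7 and Hsd17b12 fell, the desaturase gene Fads2 rose, and Fads1, Scd1 and Scd2 did not pass the test. Elovl7 had the largest fall among them, to 32.5% of its wild-type mean, and Fads2 stood at 5.28 times its low wild-type mean of 0.59 FPKM. Of the 9 genes tested 1 was higher and 5 were lower (limma, adjusted p under 0.05), and Fads3 was too low to be tested. The higher gene, Fads2, reached the minimum level for testing in the knockouts alone. Over all 11395 genes tested, 15.7% passed, 6.72% as higher and 8.94% as lower. The median log2 change was -0.55 over the 9 and 0.01 over all genes tested.

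The libraries were checked first. Zfp750 stood at 1.53 to 2.68 FPKM in the knockouts, against 81.6 to 119 FPKM in the wild types. Markers of the basal and upper keratinocyte layers were high in each library: Krt14 had 1112 to 3330 FPKM in the knockouts and 417 to 1253 FPKM in the wild types, and Lor 2188 to 3241 FPKM in the knockouts and 3174 to 3964 FPKM in the wild types. The summed level of 8 basal markers was 2346 to 6206 FPKM in the knockouts and 1176 to 3608 FPKM in the wild types. Melanocyte markers, 10 of 10 listed, summed to 19.3 FPKM in knockout 4 and 86.8 to 99.8 FPKM in the other knockouts, and to 15.6 to 90.6 FPKM in the wild types. Of immune markers 6 of 9 tested genes of the myeloid list fell, and 3 of 3 of the T cell list (Cd3g, Cd52 and Ptprc). Over all genes tested 8.94% fell. The T cell list summed to 3.34 to 5.97 FPKM in the knockouts and 18.5 to 27.5 FPKM in the wild types. Most of that sum came from Cd52, with 2.33 to 3.73 FPKM in the knockouts and 12.8 to 17.5 FPKM in the wild types. The part of immune cells in the results was not tested. A code in the sample titles is 11 for knockout 1 and wild type 4, 14 for knockout 2 and wild type 3, and 44 for the other libraries. Its meaning is not given. Xist, transcribed from the inactive X chromosome of females, was high in knockouts 1 to 3 and wild type 3 (84.6 to 150.4 FPKM in these knockouts and 118 FPKM in this wild type). It was 1.84 FPKM in knockout 4, between these and the other wild types, which had at most 0.0223 FPKM. The keratins Krt1 and Krt10 are listed at 0 in all libraries but knockouts 1 and 2, and were not tested. Less of a cell type and less RNA per cell cannot be told apart in such tissue samples.

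The stretches around the start sites of Elovl7, Elovl5 and Fads2 are shown because they carry the largest falls and the only rise. Each runs 5′ to 3′ on the gene's strand from 250 bases before to 50 bases after the RefSeq start (GRCm38.p6, the same coordinates as mm10). Elovl7 lies at chr13:108214154-108214453 on the plus strand, Elovl5 at chr9:77917115-77917414 on the plus strand and Fads2 at chr19:10101454-10101753 on the minus strand. Capitals mark matches, on either strand, to CCAAT (bound by NF-Y), CCNNAGGC (a motif described for human ZNF750), GGGCGG (the GC box of Sp and KLF factors), CACGTG (an E-box), GGGTGTGG (a KLF motif) and TCACNCCAC (a form of the sterol regulatory element).
Elovl7: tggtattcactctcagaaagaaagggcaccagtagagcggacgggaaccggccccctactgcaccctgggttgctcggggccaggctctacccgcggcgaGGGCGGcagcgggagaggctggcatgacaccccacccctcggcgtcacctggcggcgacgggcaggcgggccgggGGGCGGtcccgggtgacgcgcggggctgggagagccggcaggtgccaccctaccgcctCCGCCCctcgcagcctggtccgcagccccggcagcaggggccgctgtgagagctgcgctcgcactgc
Elovl5: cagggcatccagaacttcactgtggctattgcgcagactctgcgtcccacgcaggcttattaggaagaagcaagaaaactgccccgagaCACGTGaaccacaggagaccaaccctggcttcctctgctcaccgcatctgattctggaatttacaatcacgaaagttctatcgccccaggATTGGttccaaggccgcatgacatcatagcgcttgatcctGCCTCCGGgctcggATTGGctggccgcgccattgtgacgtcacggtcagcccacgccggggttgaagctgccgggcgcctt
Fads2: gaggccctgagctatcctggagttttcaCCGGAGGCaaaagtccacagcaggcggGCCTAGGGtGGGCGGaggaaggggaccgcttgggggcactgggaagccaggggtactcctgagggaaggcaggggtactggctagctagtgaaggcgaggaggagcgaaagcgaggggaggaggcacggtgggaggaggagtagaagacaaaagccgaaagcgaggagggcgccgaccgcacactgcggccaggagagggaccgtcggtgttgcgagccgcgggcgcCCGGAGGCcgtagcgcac

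Fads2 held CCNNAGGC at positions -222, -195 and 32 from the start, and Elovl5 held it once, at -31. Elovl7 held 3 GC boxes and no other of these motifs, and Elovl5 had a CCAAT match at -71 and at -17 and an E-box at -161. Of 32851 promoters of the same length, 24.1% hold CCNNAGGC, 35.7% a GC box, 37.4% CCAAT, 7.15% CACGTG, 3.56% GGGTGTGG and 1.24% TCACNCCAC. Start regions were given for 7 of the 10 genes, and none of them held TCACNCCAC. In Fads3, CCNNAGGC was matched at -162, and in Elovl1, Elovl6, Elovl7 and Hsd17b12 not at all. Such matches are letters in a window and say nothing of binding.

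Elovl7 lengthens saturated and monounsaturated long chains. It had 34.0, 35.7, 41.0 and 43.1 FPKM in knockout libraries 1 to 4, against 135, 117, 119 and 102 FPKM in wild-type libraries 1 to 4. Every knockout lay below every wild type. The log2 change was -1.60 ± 0.12 (SE; limma adjusted p = 4.78e-05), and it passed under each of the 23 alternatives run, with values of -1.66 to -1.53 when single libraries were left out. Within title code 44 it was -1.56, and within codes 11 and 14 it was -1.63. The summed level of 8 of 11 upper-layer markers (without Krt1, Krt10 and Flg) was 4348, 5258, 4618 and 6117 FPKM in knockout libraries 1 to 4, against 5650 to 6716 FPKM in the wild types. Of these 8 genes 1 rose, 2 fell and 5 did not pass, where 15.7% of all genes tested passed. Their part in the fall of Elovl7 was not tested. The gene covers chromosome 13 from 108214404 to 108285683 (GRCm38) and has 8 exons.

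Elovl1 makes the very long saturated chains of skin ceramides, and mice without it are known to have a leaky barrier. It was the most abundant of the 10 genes in all 8 libraries, with 317, 354, 327 and 444 FPKM in knockout libraries 1 to 4, against 577, 508, 552 and 516 FPKM in wild-type libraries 1 to 4. The groups did not overlap, and knockout 4 was the nearest to the wild types. The fall was -0.59 ± 0.13 (log2, SE; limma adjusted p = 0.0151), but it missed the threshold without knockout 3 (0.0542) or wild type 1 (0.0524). It was -0.51 within title code 44 (adjusted p = 0.147), -0.67 within codes 11 and 14 (0.0708) and -0.49 with Xist as a covariate (0.0952). Exons of Elovl1, on chromosome 4 from 118428093 to 118432953 (plus strand), overlap the cell cycle gene Cdc20 on the opposite strand. Whether counting used strand is not given. Cdc20 had 19.5, 23.6, 14.03 and 4.91 FPKM in knockout libraries 1 to 4 and 4.99, 7.78, 15.5 and 17.1 FPKM in wild-type libraries 1 to 4.

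Elovl6 turns palmitate into stearate. Its values were 18.6, 21.4, 24.7 and 30.5 FPKM in knockout libraries 1 to 4 and 42.8, 34.3, 35.7 and 31.6 FPKM in wild-type libraries 1 to 4. Knockout 4 reached nearly the level of wild type 4, so the groups only just failed to overlap. The change of -0.59 ± 0.16 had a limma adjusted p = 0.0362. It missed the threshold in 10 of 23 alternatives: without knockout 1, 2 or 3 the adjusted p was 0.0828, 0.0964 and 0.0718, and without wild type 1, 2 or 3 it was 0.106, 0.0762 and 0.0696. It was -0.47 within title code 44 (0.165), -0.72 within codes 11 and 14 (0.0335) and -0.46 with Xist as a covariate (0.190). Exons of Elovl6, on chromosome 3 from 129532355 to 129638495, overlap an annotated antisense transcript.

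Elovl5 lengthens polyunsaturated chains, the same route that Fads1 and Fads2 serve. It had 11.8, 8.77, 9.40 and 9.39 FPKM in knockout libraries 1 to 4, against 21.2, 19.9, 15.1 and 19.9 FPKM in wild-type libraries 1 to 4. The groups did not overlap, with knockout 1 the highest knockout and wild type 3 the lowest wild type. The change was -0.88 ± 0.14 (limma adjusted p = 0.00332), and it passed without each library in turn. It was -1.05 within title code 44 and -0.71 within codes 11 and 14 (adjusted p = 0.0678). Its 8 exons span 77917364 to 77984519 of chromosome 9 (plus strand).

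Hsd17b12, the ketoacyl-CoA reductase shared by chains of all kinds, had 70.2, 69.2, 72.2 and 72.5 FPKM in knockout libraries 1 to 4, against 122, 111, 91.8 and 95.6 FPKM in wild-type libraries 1 to 4. The knockouts were closely grouped, with an SD of 2.2% of their mean, while the SD of the wild types was 13.5% of theirs. The fall was -0.55 ± 0.11 (limma adjusted p = 0.0105). It was -0.68 within title code 44, -0.42 within codes 11 and 14 (adjusted p = 0.127) and -0.46 with Xist as a covariate (0.0710). The gene covers chromosome 2 from 94032689 to 94157964 on the minus strand, with 11 exons.

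**Figure D1:**
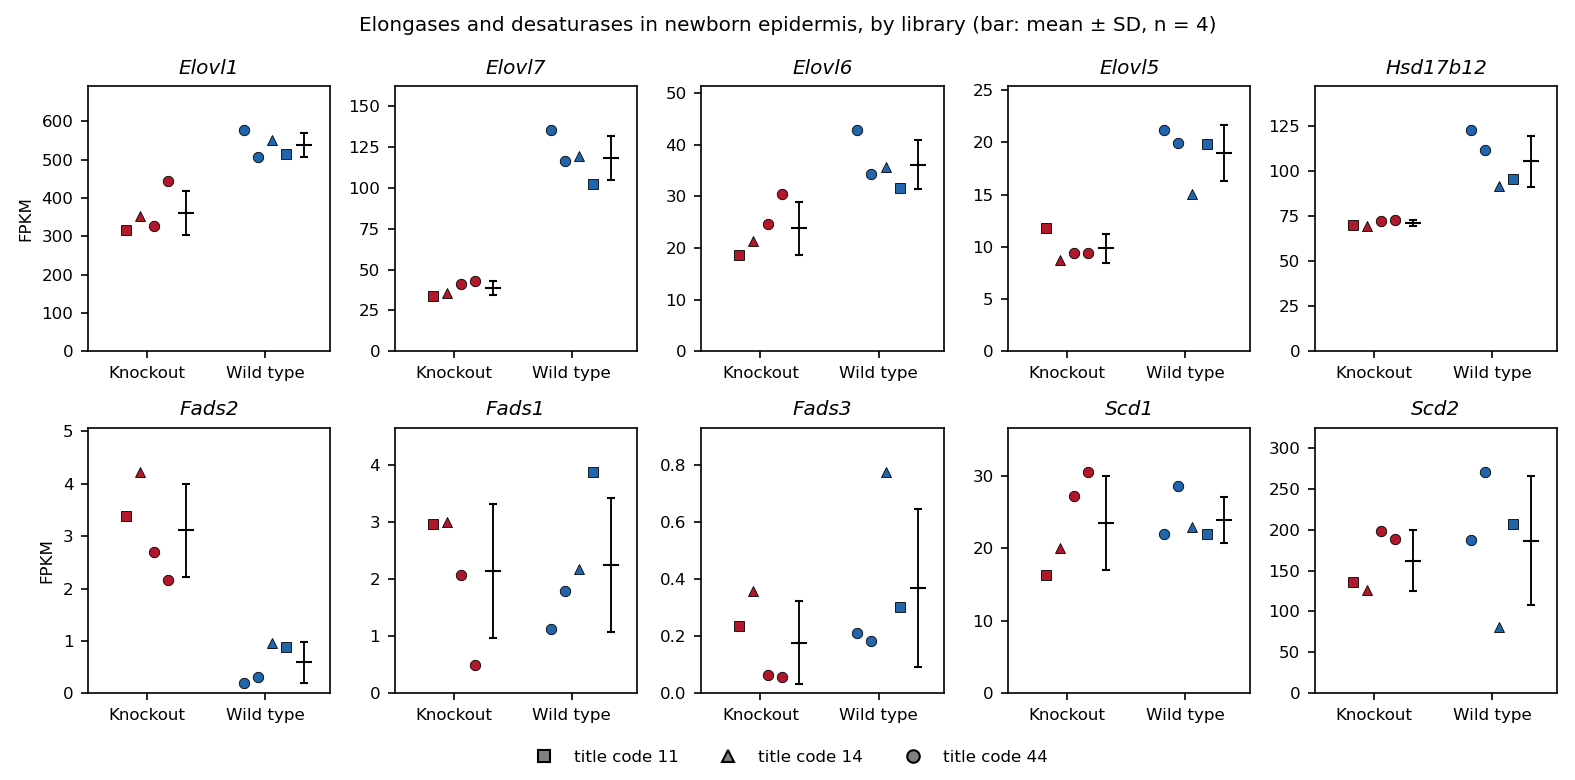
FPKM of each of the 10 genes (y axis, linear from 0) in knockout and wild-type libraries (x axis). Each point is a library, its shape is the title code, and the bar is the mean ± SD of 4 libraries. The upper row shows the 5 genes that fell, where every knockout lies below every wild type, and in the lower row only Fads2 has groups that do not overlap.

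Fads2 adds the first double bond of the polyunsaturated route. It was low in both genotypes, at 3.37, 4.22, 2.71 and 2.16 FPKM in knockout libraries 1 to 4 and 0.202, 0.309, 0.954 and 0.893 FPKM in wild-type libraries 1 to 4. The lowest knockout was above the highest wild type. The rise was 1.38 ± 0.23 (limma adjusted p = 0.00328), and it passed under all 22 alternatives that could be run, since a minimum of 5 FPKM removes the gene. Fads2 reached the minimum of 1 FPKM in the knockouts alone, so it entered the test through the group where it is high. Without any minimum the change was again 1.38 (limma adjusted p = 0.00472). It was 1.45 within title code 44 and 1.31 within codes 11 and 14. At such levels the size depends on the constant added before the logarithm, from 2.38 with 0.1 to 0.53 with 5. Of 8 basal-layer markers 4 rose, 0 fell and 4 did not pass, where 6.72% of all genes tested rose. Within each genotype Fads2 was lowest in the library with the lowest basal sum. It was highest in knockout 2 and wild type 3, while the basal sum was highest in knockout 1 and wild type 4. Knockout 4 had a lower basal sum than wild types 3 and 4 but more Fads2. The basal sum was 6206, 4434, 5414 and 2346 FPKM in knockout libraries 1 to 4, against 1176, 1788, 2779 and 3608 FPKM in wild-type libraries 1 to 4. The part of basal cells in the rise of Fads2 was not tested.

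Fads1 acts after Fads2 and Elovl5 on the way to arachidonic acid. It had 2.97, 3.01, 2.07 and 0.502 FPKM in knockout libraries 1 to 4, against 1.14, 1.79, 2.18 and 3.88 FPKM in wild-type libraries 1 to 4. The groups overlapped (log2 change -0.08 ± 0.35, limma adjusted p = 0.904). In both genotypes the libraries with codes 11 and 14 were higher than those with code 44: codes 11 and 14 had 2.97 and 3.01 FPKM among knockouts and 3.88 and 2.18 FPKM among wild types. Knockout 4 and wild type 1, the lowest of their genotypes, also had the lowest basal and melanocyte sums. The part of cell content in these differences was not tested.

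Fads3, the third gene of the cluster, whose product acts on sphingoid bases, did not reach 1 FPKM in any library. It had 0.235, 0.357, 0.0627 and 0.0569 FPKM in knockout libraries 1 to 4 and 0.212, 0.183, 0.774 and 0.304 FPKM in wild-type libraries 1 to 4, with groups that overlap. Without a minimum level its change was -0.20 ± 0.14 (limma adjusted p = 0.417). Fads3, Fads2 and Fads1 lie in that order on chromosome 19, between 10041569 and 10196877. Fads2 and Fads3 are 2654 bases apart, and Fads1 follows 81141 bases beyond Fads2.

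Within that cluster the ratio of Fads2 to Fads1 changed sides. It was 1.14, 1.40, 1.31 and 4.31 in knockouts 1 to 4, against 0.178, 0.172, 0.437 and 0.230 in wild types 1 to 4. Fads2 thus exceeded Fads1 in each knockout and stayed below it in each wild type. A ratio within a library does not depend on how libraries are scaled. The mean log2 ratio was higher by 2.88 in the knockouts, with a two-sided exact permutation p = 0.0286, the smallest that 4 libraries against 4 can give, and 0.0571 after adjustment over the 6 ratios examined. Fads2 made up 51.3% to 79.5% of the summed FPKM of Fads1, Fads2 and Fads3 among the knockouts and 13.0% to 24.4% among the wild types.

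The other ratio with separate groups among the elongases was Elovl7 to Elovl1, at 0.107, 0.101, 0.125 and 0.0970 in knockouts 1 to 4, against 0.234, 0.229, 0.216 and 0.198 in wild types 1 to 4. The difference in its mean log2 value, knockout minus wild type, was -1.03 (two-sided exact permutation p = 0.0286, adjusted p = 0.0571). Each of the 4 knockouts had a lower ratio than each wild type. The summed FPKM of Elovl1, Elovl5, Elovl6 and Elovl7 was 433 ± 64.8 among the knockouts and 712 ± 48.6 among the wild types (SD, n = 4 each). Elovl4 is not in this sum, and had 470 ± 70.6 FPKM in the knockouts and 589 ± 74.5 FPKM in the wild types. Shares of the sum are therefore not shares of all elongases. Of the sum, Elovl1 supplied 83.2% ± 1.39 among the knockouts and 75.7% ± 1.29 among the wild types. Elovl7 supplied 8.95% ± 0.876 among the knockouts and 16.6% ± 0.977 among the wild types. The ratio of Elovl1 to Hsd17b12 was 4.52 to 6.12 among the knockouts and 4.56 to 6.02 among the wild types (exact permutation p = 0.771, adjusted p = 0.926). That of Elovl6 to Elovl5 was 1.57 to 3.25 among the knockouts and 1.59 to 2.37 among the wild types (exact permutation p = 0.229, adjusted p = 0.343). The ratio of Fads2 to Fads3 was 11.8 to 43.2 among the knockouts and 0.956 to 2.94 among the wild types (exact permutation p = 0.0286, adjusted p = 0.0571). Its denominator Fads3 was near the floor, at 0.0569 to 0.357 FPKM in the knockouts and 0.183 to 0.774 FPKM in the wild types. The size of this ratio is therefore rough. With 1 added to each FPKM its log2 difference shrank from 3.88 to 1.59.

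**Figure D2:**
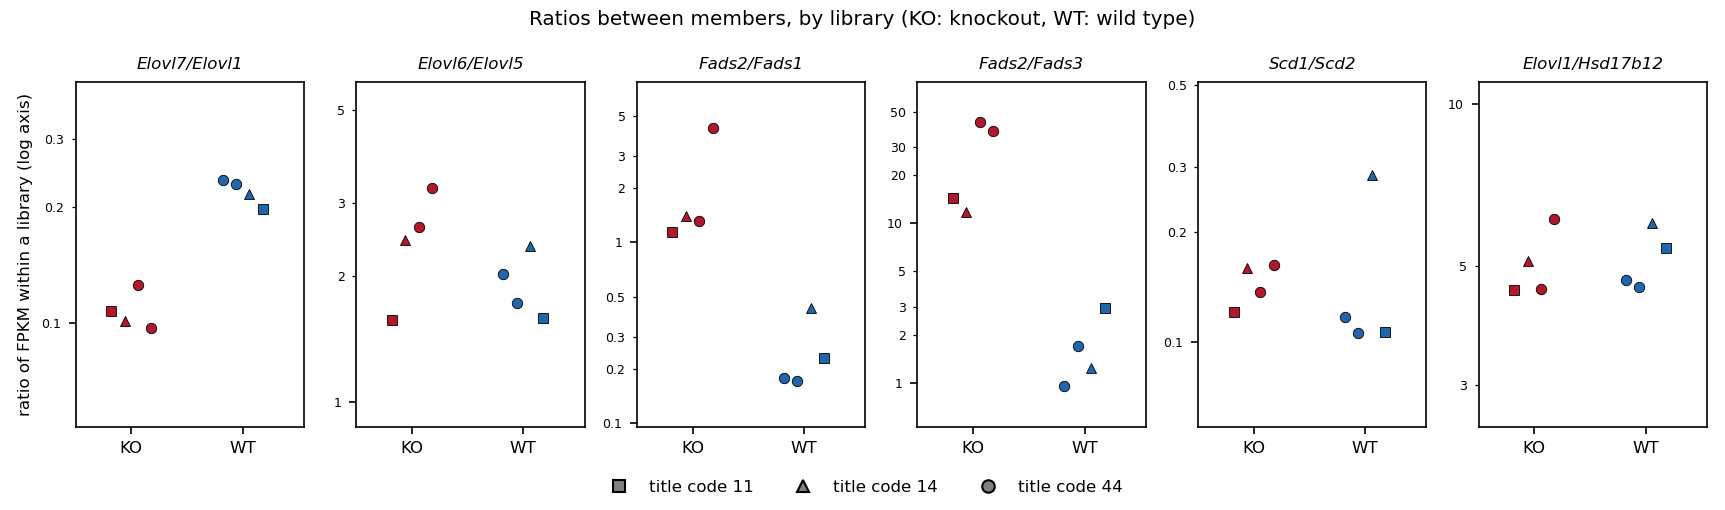
Ratio of 2 genes' FPKM within each library (y axis, log scale) for 6 pairs of genes, in knockout (KO) and wild-type (WT) libraries. Points are libraries and shapes are title codes. The groups lie apart for Elovl7/Elovl1, Fads2/Fads1 and Fads2/Fads3 and overlap for Elovl6/Elovl5, Scd1/Scd2 and Elovl1/Hsd17b12.

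Scd1 and Scd2, which make monounsaturated chains, differed in level, and neither passed the test between genotypes. Scd1, the form known from sebaceous glands and liver, had 16.4, 20.0, 27.3 and 30.5 FPKM in knockout libraries 1 to 4, against 22.0, 28.7, 22.9 and 22.0 FPKM in wild-type libraries 1 to 4 (log2 change -0.05 ± 0.19, limma adjusted p = 0.890). Knockouts 1 and 2 were below all wild types and knockout 4 above all of them. Scd2 had 136, 126, 199 and 188 FPKM in knockout libraries 1 to 4 and 187, 270.0, 80.5 and 207 FPKM in wild-type libraries 1 to 4 (-0.10 ± 0.34, limma adjusted p = 0.879). Scd2 provided 86.1% to 89.2% of the summed FPKM of both among the knockouts and 77.8% to 90.4% among the wild types. The ratio of Scd1 to Scd2 was 0.121 to 0.162 among the knockouts and 0.106 to 0.285 among the wild types (exact permutation p = 0.971, adjusted p = 0.971). Both genes lie on chromosome 19, 87590 bases apart. They are close paralogs, and reads could have been shared between them.

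Wild type 3, with the lowest Scd2 level, also had the highest level of muscle markers and of the adipocyte gene Cfd. Its muscle markers, 6 of 8 listed, summed to 53.9 FPKM, where the knockouts had 1.95 to 7.38 FPKM and the other wild types 3.68 to 5.92 FPKM. Cfd had 0 to 0.710 FPKM in the knockouts, 13.8 FPKM in wild type 3 and at most 0.186 FPKM in the other wild types. Fabp4, which made up most of the summed level of the 6 adipocyte markers listed, had 35.7, 48.6, 33.0 and 20.9 FPKM in knockout libraries 1 to 4 and 13.3, 7.69, 33.6 and 8.55 FPKM in wild-type libraries 1 to 4 (limma adjusted p = 0.0733). The adipocyte sum was 21.3 to 50.7 FPKM in the knockouts and 8.34 to 52.3 FPKM in the wild types. Among sebaceous markers, 10 of 13 listed and 7 tested, Krt79 fell to 49.7 ± 12.0 FPKM in the knockouts, against 129 ± 14.3 FPKM in the wild types (limma adjusted p = 0.00059). Far2, which makes fatty alcohols, fell to 1.57 ± 0.255 FPKM in the knockouts, against 7.55 ± 6.08 FPKM in the wild types, and Mgst1 rose to 35.2 ± 5.22 FPKM in the knockouts, against 22.2 ± 4.04 FPKM in the wild types. Mogat2 was at most 0.0847 FPKM, Scd3 0.285 to 0.539 FPKM in the knockouts and 0.222 to 0.416 FPKM in the wild types, and Awat2 0.486 to 0.735 FPKM in the knockouts and 0.888 to 1.37 FPKM in the wild types. Mc5r, Awat1 and Elovl3 were not analysed here. The summed sebaceous level was 1266 to 2110 FPKM in the knockouts and 1814 to 2550 FPKM in the wild types, most of it from Fabp5, which keratinocytes also make. The part of these cells in the Scd levels was not tested.

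In order of mean level the knockouts ran from Elovl1 through Scd2, Hsd17b12, Elovl7, Elovl6, Scd1, Elovl5, Fads2 and Fads1 to Fads3. Of neighbours in that order, the ranges over libraries overlapped for Elovl6 and Scd1 and for Fads2 and Fads1. The wild types ran from Elovl1 through Scd2, Elovl7, Hsd17b12, Elovl6, Scd1, Elovl5, Fads1 and Fads2 to Fads3, and the ranges overlapped for Scd2 and Elovl7, for Elovl7 and Hsd17b12 and for Fads2 and Fads3. Elovl7 ranked 4 in each knockout and 2 or 3 in each wild type. The groups did not overlap for 6 of the 9 genes tested and for 21.3% of all genes tested. Fads2, among the 6, entered the test through the knockouts alone.

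Within genotypes the libraries also differed in a shared way. Among knockouts, knockout 4 had the highest Elovl1, Elovl6, Elovl7 and Scd1 and the lowest Fads1, Fads2 and Fads3. Among wild types, wild type 1 had the highest Elovl1, Elovl6 and Elovl7 and the lowest Fads1 and Fads2. The deviation of Fads1 from its genotype mean was -0.96 in knockout 4 and -0.54 in wild type 1 on the log2 scale, where that of Elovl6 was 0.37 and 0.25. Hsd17b12 was also highest in knockout 4 and wild type 1 within their genotypes. It deviated by at most 0.04 among the knockouts and 0.23 among the wild types. Knockout 4 and wild type 1 had the lowest basal and melanocyte sums of their genotypes. The part of cell content in these deviations was not tested.

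**Figure D3:**
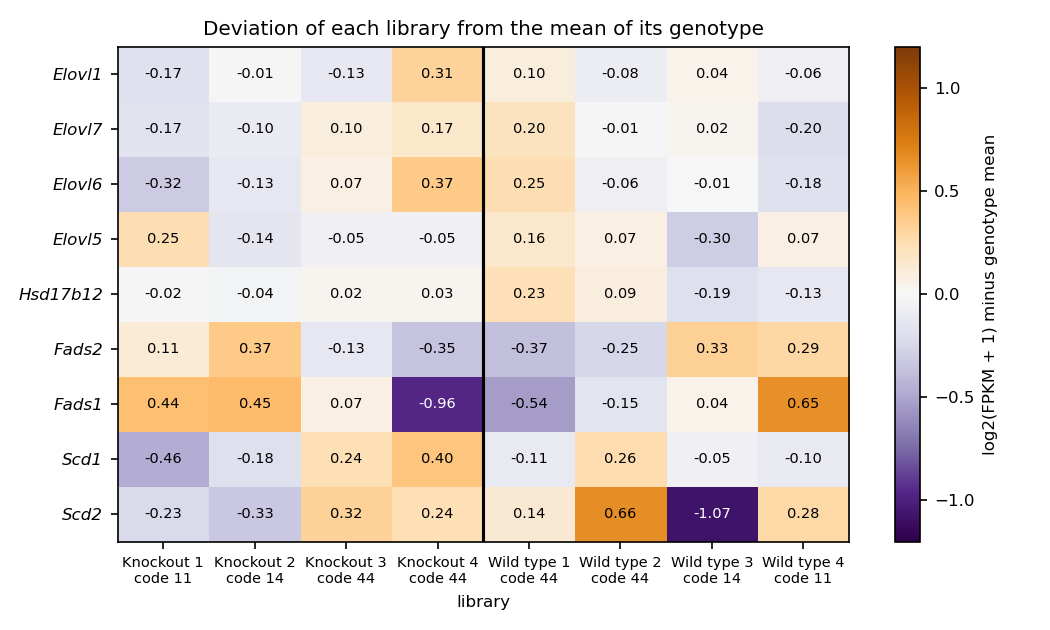
Difference of log2(FPKM + 1) from the mean of the same genotype (colour and printed value) for the 9 genes tested (rows) in each library (columns, knockouts left of the line). Knockout 4 and wild type 1 have positive values for Elovl1, Elovl6 and Elovl7 beside negative values for Fads1 and Fads2.

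Of the remaining enzymes of the cycle, Hacd2 passed as lower and Tecr as higher. Of 15 further elongation and desaturation genes 8 were tested, of which 1 rose, 3 fell and 4 did not pass (median log2 change -0.62). Of the 8 changes 1 was positive and 7 were negative. This list also holds genes outside the cycle, Degs1 and Degs2 among them. Among all genes tested 15.7% passed, 6.72% as higher and 8.94% as lower. Hacd2, a dehydratase of the cycle, fell to 13.5 ± 2.76 FPKM in the knockouts, against 22.2 ± 1.53 FPKM in the wild types (SD, n = 4 each; log2 -0.69 ± 0.14). Tecr, the last reductase, rose to 315 ± 62.5 FPKM in the knockouts, against 208 ± 25.1 FPKM in the wild types (0.59 ± 0.16, limma adjusted p = 0.0347). Within 1 cycle, Hsd17b12 and Hacd2 were thus lower in the knockouts and Tecr higher. The more abundant dehydratase Hacd3 did not pass, with 33.6 FPKM in the knockouts and 41.2 FPKM in the wild types (limma adjusted p = 0.157). Hacd1 did not pass either (limma adjusted p = 0.199). Degs1, which desaturates sphingoid bases in ceramide, fell by 0.80 ± 0.15 on the log2 scale, and Degs2 fell by 1.15 ± 0.29. Elovl4, the elongase of the ultra-long chains of acylceramides, had 470 ± 70.6 FPKM in the knockouts and 589 ± 74.5 FPKM in the wild types (limma adjusted p = 0.177).

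Of 6 tested electron donors of the desaturases 2 rose, 0 fell and 4 did not pass (median log2 change 0.24), where 15.7% of all genes tested passed. Cyb5b, a membrane cytochrome b5 best known from mitochondria, stood at 34.9 ± 3.97 FPKM in the knockouts and 19.4 ± 2.36 FPKM in the wild types (0.82 ± 0.13, limma adjusted p = 0.00255). Cyb5r3, the reductase that passes electrons to cytochrome b5, rose by 0.81 ± 0.19, while Cyb5r4 (-0.58 ± 0.19, limma adjusted p = 0.0646) and Cyb5r1 (0.35 ± 0.20, limma adjusted p = 0.305) did not pass.

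Of 10 tested genes that supply malonyl-CoA and palmitate, 1 rose, 1 fell and 8 did not pass (median log2 change 0.06). That is near the 15.7% of all genes tested that passed. Me1, the malic enzyme that yields NADPH, fell to 28.9 ± 3.45 FPKM in the knockouts, against 50.7 ± 5.98 FPKM in the wild types (-0.79 ± 0.13). Slc25a1, the mitochondrial citrate carrier, rose by 0.61 ± 0.15. Fasn, the fatty acid synthase, had 62.8 ± 8.69 FPKM in the knockouts and 49.8 ± 3.22 FPKM in the wild types (limma adjusted p = 0.102), and Pdk4, an inhibitor of pyruvate dehydrogenase, had a log2 change of -0.75 ± 0.26 (limma adjusted p = 0.0892).

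**Figure D4:**
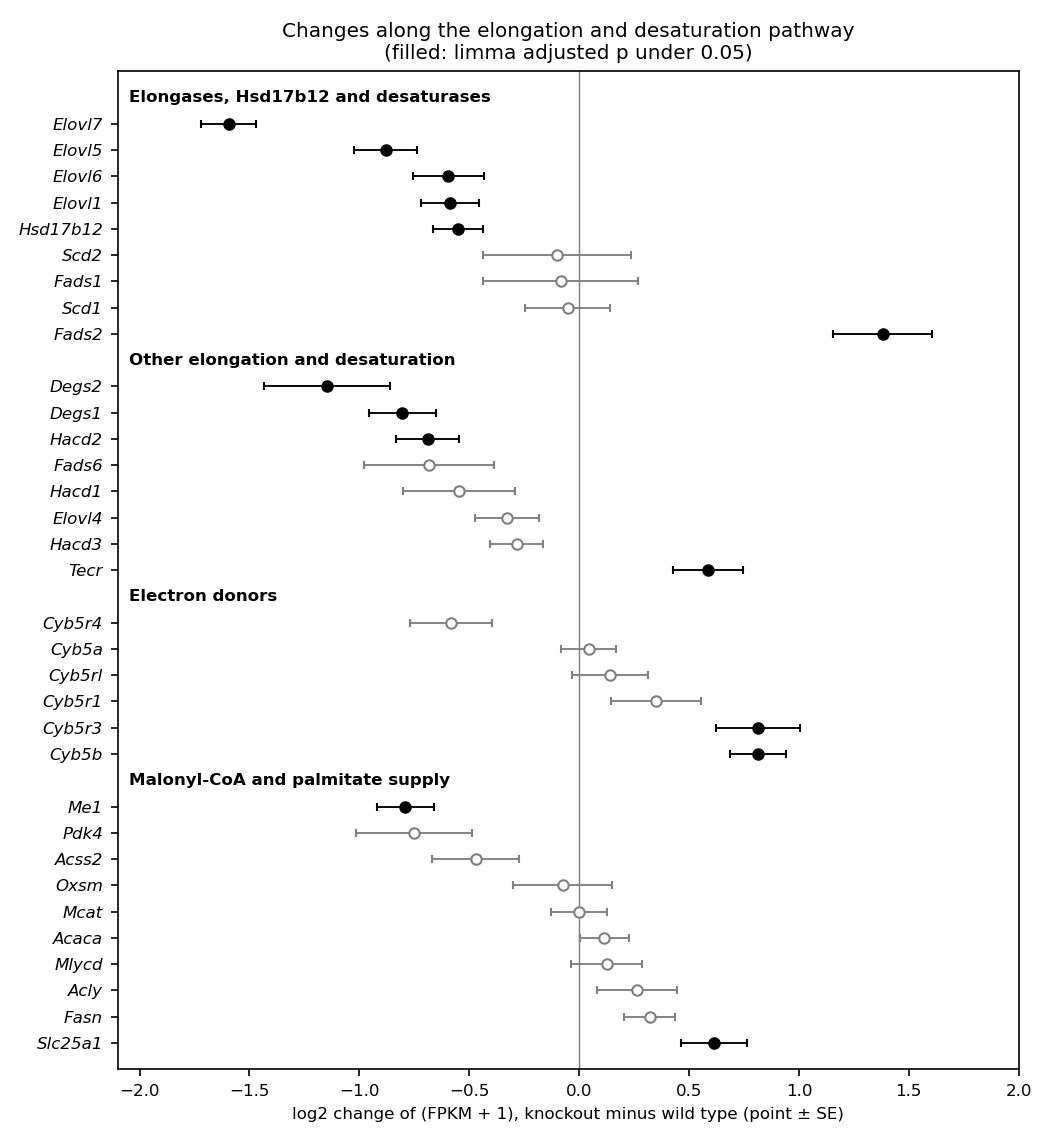
Log2 change of FPKM + 1, knockout minus wild type, with its SE (x axis) for the 9 genes tested and the tested genes of 3 lists around them (rows). Filled points have a limma adjusted p under 0.05. Among the elongation genes most points lie left of 0, and Fads2, Tecr, Cyb5b, Cyb5r3 and Slc25a1 are the filled points on the right.

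Of 16 tested regulators 1 rose, 2 fell and 13 did not pass (median log2 change -0.05). That is near the 15.7% of all genes tested that passed. Beside Zfp750 itself the gene that fell was Insig2, which holds the SREBP complex in the endoplasmic reticulum, with 21.4 ± 6.96 FPKM in the knockouts and 50.8 ± 4.36 FPKM in the wild types (-1.26 ± 0.21, limma adjusted p = 0.00328). Ppard, a nuclear receptor for fatty acids, rose by 0.62 ± 0.16. Srebf1, which drives Scd and elongase genes in liver, had 41.2 ± 7.02 FPKM in the knockouts and 30.7 ± 3.60 FPKM in the wild types (limma adjusted p = 0.0947). Of 24 tested genes that use the chains, 3 rose, 3 fell and 18 did not pass (median log2 change 0.05), beside the same 15.7% over all genes tested. Those with the smallest p were the acyl-CoA synthetase Acsl6 (-1.93 ± 0.25), the ceramide synthases Cers6 (0.97 ± 0.20) and Cers5 (0.65 ± 0.16), and Slc27a3 of the fatty acid transport family (1.42 ± 0.34).

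The genes with the pattern most like that of Elovl7 over the 8 libraries were Cttnbp2, Kdsr, Naaa, Pgrmc2 and Hsd17b14, with Pearson's r of log2(FPKM + 1) between 0.994 and 0.996. For Fads2 they were Lrrc49, Tesk1, Dgkd, Ppp1cc and Card10, with r between 0.988 and 0.993. These values include the difference between genotypes. With the genotype means taken off, Orm1, Nlk, Plekha1, Klf8 and Pmm2 were most like Elovl7 (0.970 to 0.988), and Eva1b, Bex2, Flrt2, Fam89b and Cdc6 most like Fads2 (0.985 to 0.992). These are the highest values among all other genes tested and are given as a description. With the means taken off, likeness does not include the direction between genotypes. Orm1 rose, to 202 ± 38.6 FPKM in the knockouts against 85.3 ± 15.0 FPKM in the wild types (limma adjusted p = 0.00137), where Elovl7 fell. Nlk fell, and Plekha1, Klf8, Pmm2 and the genes most like Fads2 in this way did not pass.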

How the data were processed

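RNA of epidermis in 4 Zfp750 knockout and 4 wild-type samples had been depleted of ribosomal RNA and sequenced in pairs from stranded libraries, per the labels' protocols. The authors deposited FPKM values for mm10, per the submitters' processing notes. The sources used here name no aligner, counter, annotation or use of strand. Of 15995 listed genes 2029 lack a value in some library; these were set to 0. Krt1, Krt10, Flg2 and Rn45s, listed at exactly 0 in some libraries, were not tested. Absolute depth is unknown. Steps among values under 0.15 FPKM put relative depths at 0.963 to 1.48 times knockout 1. The commonest ratio held 9.3% to 19.3% of low genes between knockouts 1 and 2 and wild type 2, and 11.2% between knockouts 3 and 4. Between knockout 1 and the remaining libraries it held 3.5% to 5.2%. Both ends of the depth range come from such pairs (knockout 4 and wild type 1) and are rough.

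Genes with at least 1 FPKM in 4 libraries (3 of 7, or 2 of 4, in smaller fits) were compared on log2(FPKM + 1), which understates changes of low genes, with limma 3.58.1 (R 4.3.3, mean-variance trend) and Benjamini-Hochberg adjustment over all genes tested. The fit was tested on simulated data. Ratios were compared by two-sided exact permutation over 70 assignments (scipy 1.17.1). Gene positions are from GENCODE M21, promoters from RefSeq. Of 210 list symbols 5 were found under older names and 27 had no row. The genes and lists were chosen with earlier results of these data known. Named genes are Zfp750, the 10 genes, up to 4 genes with the smallest p in each pathway list and the genes most alike. Elovl4, Hacd1, Hacd3, Cdc20 and single markers were named after their values were seen. Alternatives were the added constant, filters, scalings, library weights, the title code, Xist and each library left out.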

Additional observations from a re-analysis of the deposited data

Results flagged for a closer look

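Among the 32 sets of 4 libraries examined (10 genes and 6 ratios in each genotype), 3 had a library far from the others by Dixon's test, where chance gives about 1 set in 20. Scd1 stood at 28.7 FPKM in wild type 2, with the other wild types between 22.0 and 22.9 FPKM. The ratio of Fads2 to Fads1 was 4.31 in knockout 4, with the other knockouts between 1.14 and 1.40. The ratio of Scd1 to Scd2 was 0.285 in wild type 3, with the other wild types between 0.106 and 0.117. No cause was tested for any of them.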

How the results depend on the processing

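The fall of Elovl7 and the rise of Fads2 kept their direction and passed under every alternative that could be fitted. Elovl5 lost its call in 1 of 23 alternatives, Hsd17b12 in 2, Elovl1 in 5 and Elovl6 in 10. The counts of 1 gene higher and 5 lower were 0 higher at a minimum of 5 FPKM, 3 lower with title code 44 alone, 2 lower with codes 11 and 14 alone and 2 lower with log2 Xist as covariate (Xist was at 1.84 to 150.4 FPKM in the knockouts and 0.00825 to 118 FPKM in the wild types). Leaving out single libraries gave 1 higher and 3 to 5 lower. With Xist, Elovl1, Elovl6 and Hsd17b12 were lost (limma adjusted p = 0.0952, 0.190 and 0.0710). Xist was high in knockouts 1 to 3 and wild type 3, so it is uneven between genotypes and that fit cannot fully separate them. Elovl1 was at -0.49 ± 0.16 there, against -0.59 ± 0.13 in the main fit. Code 44 alone lost Elovl1 and Elovl6, and codes 11 and 14 alone lost Elovl1, Elovl5 and Hsd17b12. The fits within codes have 4 libraries.

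Genes that did not pass changed sign around 0. Fads1 was at 0.31 with array weights and 0.018 with codes 11 and 14 alone, Scd1 at 0.19 with code 44 alone, 0.10 with Xist and 0.0023 with a block for how the number in each column name starts (added after the data were examined), and Scd2 at 0.016 with codes 11 and 14 alone and 0.46 with Xist. That number starts with 2508 for knockouts 1 and 2 and wild type 2, and with 2478 for the other libraries. Its meaning is not given. Without single libraries Fads1 ranged from -0.26 to 0.24, Scd1 from -0.19 to 0.10 and Scd2 from -0.46 to 0.12. Over all genes 766 were higher and 1019 lower; the counts were 1942 and 1727 with array weights, 465 and 676 with Xist, 575 lower with code 44 alone, and 474 to 1083 higher and 649 to 1243 lower without single libraries.

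Without single libraries the log2 difference of the ratios ranged from -1.11 to -0.98 for Elovl7/Elovl1, 2.44 to 3.17 for Fads2/Fads1, 3.58 to 4.204 for Fads2/Fads3, 0.18 to 0.53 for Elovl6/Elovl5, -0.09 to 0.39 for Scd1/Scd2 and -0.13 to 0.04 for Elovl1/Hsd17b12. With 1 added to each FPKM those of Fads2/Fads1 and Fads2/Fads3 shrank to 1.46 and 1.59. With the title code as replicate block 2261 genes passed, among them the same 1 higher and 5 lower. The code is not said to pair samples. Deviations from genotype means correlated at 0.389 for the pair with code 11, 0.238 for code 14, -0.154 to 0.427 within code 44 and -0.435 to 0.202 between codes. Elovl6 also missed the threshold with median scaling (adjusted p = 0.0538) and with the block for the column number (0.0524). The causes were not tested. Fads1, Fads2 and Fads3 are low, and how far depth limits them is unknown.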
